A study of Mus musculus with 32 samples.

Results

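The 9 genes described here mark stem cells of the hair follicle and were followed in the epidermis of hairless mice: Lgr5, Lgr6, Lrig1, Cd34, Sox9, Lhx2, Nfatc1, Tcf7l1 and Gli1. They were matched by symbol, and all 9 were found among the 55401 gene identifiers in the count files. The samples were epidermis of 32 mice of the hairless strain SKH-1/SV129/BL6/J, either wild type (WT, +/+) or PPARbeta-deficient littermates (KO, -/-), aged 10 to 14 weeks. Male and female mice received a single sub-erythematous UV dose of 120 mJ/cm2 on the back and were sampled 24 h later, or were handled in the same way without UV (control). Each of the 8 groups (genotype by sex by treatment) held 4 mice, so that each genotype had 8 control and 8 UV-exposed mice. All groups carry the hairless background, and the epidermis was a bulk preparation, so fewer cells of a type and less RNA per cell cannot be told apart in any value below.

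The hair follicle renews itself from stem cells in the bulge and the neighbouring hair germ, while cells of the isthmus and the junctional zone maintain the upper follicle and the sebaceous gland. Cd34, Lhx2, Sox9, Nfatc1 and Tcf7l1 are known from the bulge, Lgr5 from the lower bulge and hair germ, Gli1 from cells that answer Hedgehog signals, Lgr6 from the isthmus and the basal epidermis, and Lrig1 from the junctional zone. In SKH-1 mice the Hairless gene (Hr) is defective and the follicles degenerate after the first hair cycle.

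The depth, as the sum of reads assigned to genes, ran from 22919428 to 40653581 per mouse (median 27600228). Levels are given in cpm, the reads of a gene scaled by the total of its mouse, with that total adjusted between mice by TMM normalization. Basal keratinocyte markers (6 genes including Krt14) and suprabasal markers (6 genes including Krt10) were read in every mouse, as sums that shifted with UV in both genotypes without overlap. The basal sum was 6901 to 15480 cpm in WT control and 16890 to 28890 cpm in WT UV mice, and 5091 to 11650 and 16450 to 28520 cpm in KO mice. The suprabasal sum was 62770 to 73600 cpm in WT control and 10360 to 24270 cpm in WT UV mice, and 57680 to 101700 and 6543 to 28930 cpm in KO mice. With UV, 34.5% of all genes tested rose and 36.5% fell in WT mice (edgeR, adjusted P under 0.05). In the same mice 3 of the 6 basal markers rose and 2 fell, and 1 of the 6 suprabasal markers rose and 5 fell. Of T cell markers 5 of 7 fell, and of myeloid and Langerhans cell markers 5 of 8 fell and 1 rose. The part of these shifts in the UV results of the 9 genes was not tested. Skeletal muscle markers (5 genes) ran from 3.72 to 2567 cpm and were high in some mice of every genotype and treatment; their part in the results was not tested. Ppard, the gene of PPARbeta, was read at 95.5 ± 6.08 cpm (SD, n = 8) in WT control and at 79.8 ± 6.87 cpm (n = 8) in KO control mice (adjusted P = 0.156), and at 282 ± 24.7 and 210 ± 25.7 cpm after UV (adjusted P = 0.00114). A count over the whole gene does not check a deletion of part of it, and the KO labels were used as given. One library stood apart: KO female UV replicate 2 held 2208 cpm of 8 dermal fibroblast markers (Col1a1, Col1a2, Col3a1, Pdgfra, Lum, Dcn, Fbn1 and Mfap5), whereas the next highest mouse, KO female control replicate 1, held 100.1 cpm. Values that rest on it are given with and without it.

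RefSeq promoter windows (build GRCm38.p6) were used for 5 of the 9 genes: Lgr6, Lrig1, Cd34, Lhx2 and Tcf7l1. The bases from 250 to 21 before the start site are shown for Lgr6, which had the largest UV fall among the 8 genes tested in both genotypes, for Cd34, which rose in both, and for Lrig1, which fell less than Lgr6. The Lgr6 window is chr1:135105297-135105526 (minus strand), the Lrig1 window chr6:94700166-94700395 (minus strand) and the Cd34 window chr1:194938571-194938800 (plus strand). All 3 lie just upstream of the first exon of their gene. Capitals mark ACAATG, a SOX motif.
Lgr6: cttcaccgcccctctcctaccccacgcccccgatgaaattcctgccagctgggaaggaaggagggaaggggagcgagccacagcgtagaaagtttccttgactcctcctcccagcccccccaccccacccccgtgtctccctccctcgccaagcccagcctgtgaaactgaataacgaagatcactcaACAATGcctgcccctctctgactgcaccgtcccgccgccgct
Lrig1: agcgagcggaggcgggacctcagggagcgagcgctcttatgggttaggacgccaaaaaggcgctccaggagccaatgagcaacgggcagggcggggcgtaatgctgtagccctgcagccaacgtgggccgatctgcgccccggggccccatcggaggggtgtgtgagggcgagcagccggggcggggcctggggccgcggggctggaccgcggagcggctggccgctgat
Cd34: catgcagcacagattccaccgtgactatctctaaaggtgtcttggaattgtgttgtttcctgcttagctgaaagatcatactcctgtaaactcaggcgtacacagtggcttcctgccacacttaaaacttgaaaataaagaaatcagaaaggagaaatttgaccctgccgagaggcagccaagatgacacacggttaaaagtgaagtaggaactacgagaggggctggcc
The 3 windows differ in base composition, with 63% G and C for Lgr6, 72.2% for Lrig1 and 45.7% for Cd34, where the median of all 32851 promoters was 51.7%. The motifs searched, on both strands, were ACAATG (SOX, held by 10.1% of all promoters), TAATTA (LIM homeodomain, 4.7%), GGAAAA (NFAT, 19.1%), CTTTGAT and CTTTGAA (TCF/LEF, 3.0% and 4.2%), GACCACCCA (GLI, 0.2%) and TGANTCA (AP-1, 6.3%). CTTTGAT and CTTTGAA differ only in their last base, and no match in the windows of these genes overlapped another. Of the 6 windows of these 5 genes (Lhx2 has a pair), the Lgr6 window held the SOX letters 62 to 57 bases before the start site, and 1 Lhx2 window held the NFAT letters on the opposite strand 139 to 134 bases before it. These are matches of letters only.

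In WT control epidermis 4 of the 9 genes had medians above 9 cpm and 5 had medians under 1 cpm. Per kb of annotated exon, the order of the levels by median was Lrig1 (8.01 cpm per kb), Nfatc1 (5.34), Lgr6 (5.31), Sox9 (2.38), Gli1 (0.139), Lhx2 (0.109), Cd34 (0.104), Tcf7l1 (0.0655) and Lgr5 (0.0148). The ranges over 8 mice separated only Lgr6 from Sox9 and Sox9 from Gli1 among neighbours in this order. After UV the order in WT mice was led by Sox9 (12.3 cpm per kb), then Lrig1 (4.62), Nfatc1 (4.42), Cd34 (0.503) and Lgr6 (0.0724), and the ranges of Sox9 and Lrig1, of Nfatc1 and Cd34, and of Cd34 and Lgr6 did not meet. With the longest transcript as the length, Cd34 moved up to rank 5 in the control mice of both genotypes.

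**Figure D1:**
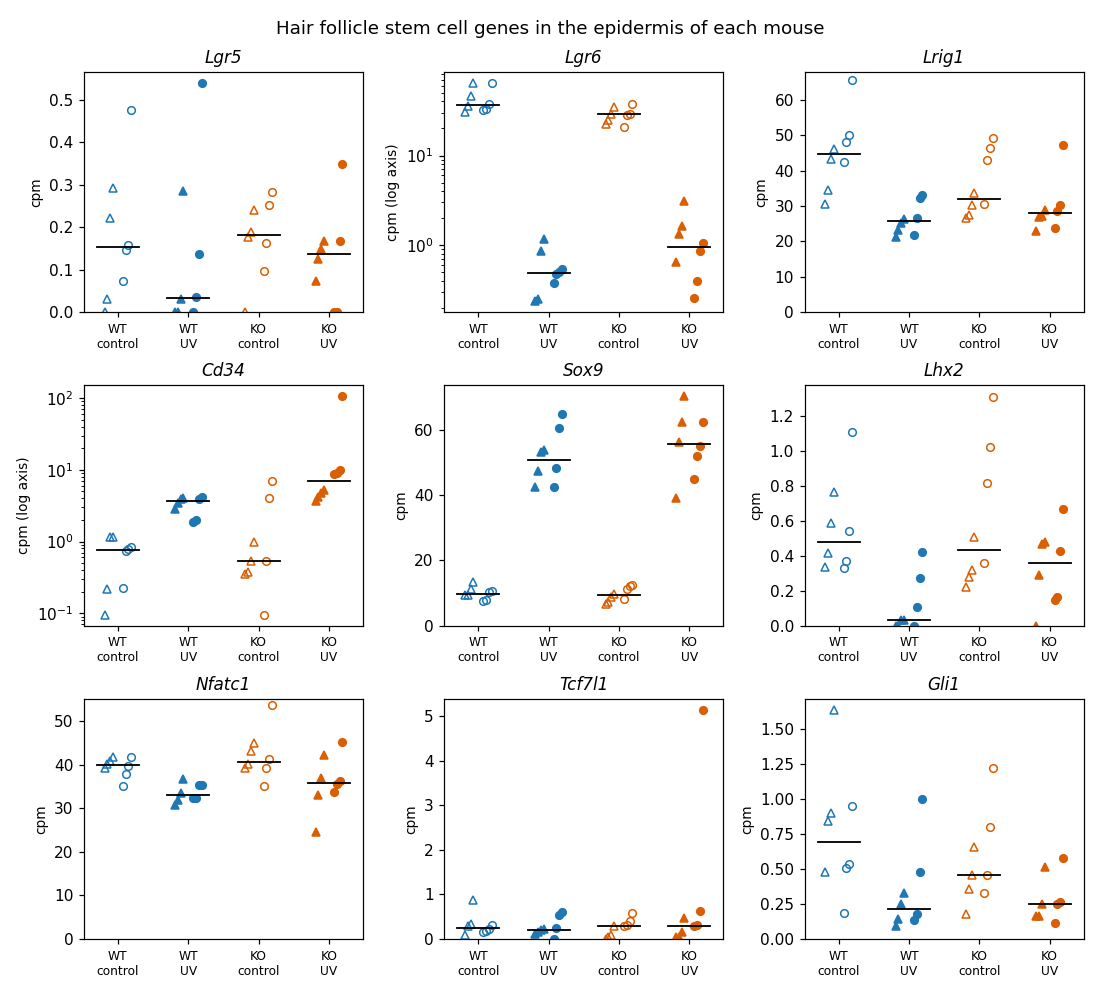
Level in cpm of the 9 hair follicle stem cell genes in each of the 32 mice, by genotype and treatment (triangles, males; circles, females; open, control; filled, UV; black line, median of 8 mice; log axis for Lgr6 and Cd34 only). Lgr6 in UV mice lies below every control mouse in both genotypes, Sox9 lies above, and the highest Cd34 and Tcf7l1 values (106.2 and 5.13 cpm) belong to one KO female UV mouse.

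The first question is how UV exposure alters these genes in WT epidermis. Of the 8 genes that passed the filter on low counts (at least 1 cpm in at least 1 mouse), 2 rose (Cd34 and Sox9), 5 fell (Lgr6, Lrig1, Lhx2, Nfatc1 and Gli1) and Tcf7l1 did not pass the test (edgeR quasi-likelihood test, adjusted P value under 0.05 over 15546 genes). The background is high: 71% of all genes tested passed the same threshold in WT mice and 70.8% in KO mice, so that the number of called genes says little about these 9. By direction, 34.5% rose and 36.5% fell in WT mice, and 37.3% rose and 33.5% fell in KO mice. The counts of the gene lists below stand against the same shares. The sizes differ more. The median log2 fold change of the 8 genes was -0.52 in WT and -0.25 in KO mice, where the median over all genes was -0.01 and 0.09. The filter itself passes through high values: the 3 mice in which Lhx2 reached 1 cpm were all controls, and so were the 3 for Gli1 before TMM scaling. Tcf7l1 reached it only in KO female UV replicate 2, so these medians are a description. In WT mice the UV and control values did not overlap for Lgr6, Cd34 and Sox9, and in KO mice for Lgr6 and Sox9, where 43.4% and 35.1% of all genes did not overlap.

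**Figure D2:**
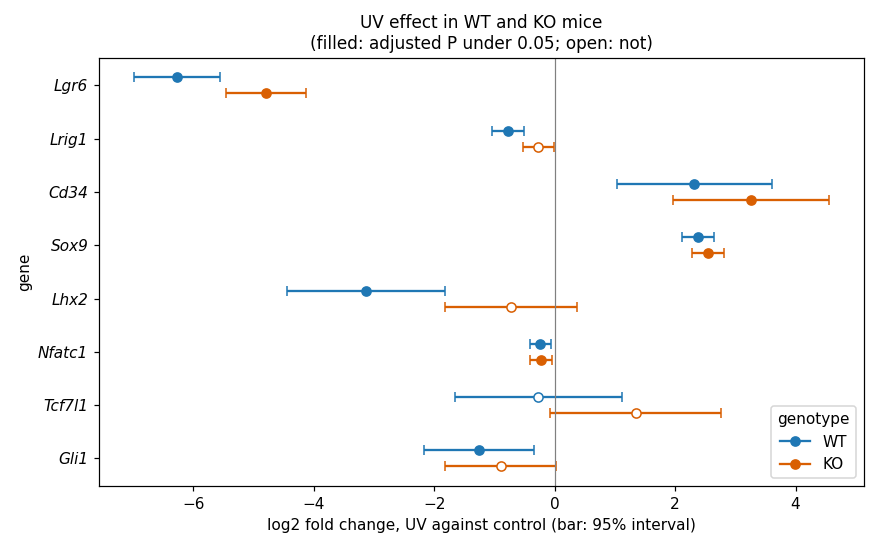
Log2 fold change of UV against control for the 8 genes tested, in WT (blue) and KO (orange) mice, with 95% intervals from the fit of all 32 mice (filled, adjusted P under 0.05; open, not). Lgr6 lies at -6.27 in WT and -4.79 in KO mice, Sox9 at 2.39 and 2.55, and the intervals of Tcf7l1 include 0 in both genotypes.

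Lgr6 and Lgr5 encode receptors for R-spondins, secreted proteins that keep Wnt receptors at the cell surface. Lgr6 (ENSMUSG00000042793, chromosome 1, 134983301 to 135105276, minus strand, GRCm38) was read at 30.3 to 64.5 cpm (median 36.4) in WT control mice and at 0.240 to 1.17 cpm (median 0.496) in WT UV mice. In KO mice it was read at 20.7 to 37.7 cpm (median 28.6) without UV and at 0.262 to 3.11 cpm (median 0.963) after UV. The lowest control mouse of either genotype therefore stood above the highest UV mouse. The fall was 77.2-fold in WT mice (log2 fold change -6.27, SE 0.35, adjusted P = 6.18e-15) and 27.6-fold in KO mice (-4.79, SE 0.32, adjusted P = 3.83e-13). Of 13085 genes with a mean of at least 1 cpm, 21 fell by more in WT and 45 in KO mice. Behind the UV values stood 8 to 37 reads per WT mouse and 8 to 75 reads per KO mouse, against 583 to 2033 reads in control mice.

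Lgr5 (ENSMUSG00000020140, chromosome 10, 115450311 to 115587780, minus strand) had 135 reads over all 32 mice, at most 15 in 1 mouse, and 7 mice had none. No mouse reached 1 cpm, so it was not part of the tests. Its medians were 0.152 and 0.0322 cpm in WT control and UV mice and 0.182 and 0.136 cpm in KO mice, and the values of all 4 groups overlapped. Without a filter on low counts its log2 fold change with UV was -0.51 (SE 0.82, adjusted P = 0.787) in WT and -0.48 (SE 0.82, adjusted P = 0.822) in KO mice. A difference was not detectable at this depth.

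Other genes of the R-spondin and Wnt receptor axis were examined as a list of 10, of which 7 passed the filter. In WT mice 6 fell and 1 rose, with a median log2 fold change of -1.35, and in KO mice again 6 fell and 1 rose, with a median of -1.21. Of all genes tested, 36.5% fell in WT and 33.5% in KO mice. Lgr4, the third R-spondin receptor, went from 29.4 to 6.76 cpm in WT mice (log2 fold change -2.13, SE 0.14) and fell by 1.65 on the log2 scale in KO mice. The ubiquitin ligases Znrf3 and Rnf43, which remove Wnt receptors and are held back by R-spondins, fell by 2.26 and 1.35 in WT mice, and the co-receptor Lrp5 fell by 0.98. The remaining 3 genes are named because they complete the count: the co-receptor Lrp6 fell by 0.37, Ctnnb1 (beta-catenin) rose by 0.60, and the ligand Rspo3 had 140 reads in the WT control mice and 0 in the 8 WT UV mice. Rspo3 was thus at least 50-fold lower against a floor of 3 reads over the group. It is the lowest value of the list at that bound too, so the list's median of -1.35 could not move with it. Among WT mice only controls could bring Rspo3 past the filter, so the filter favoured a fall with UV.

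**Figure D3:**
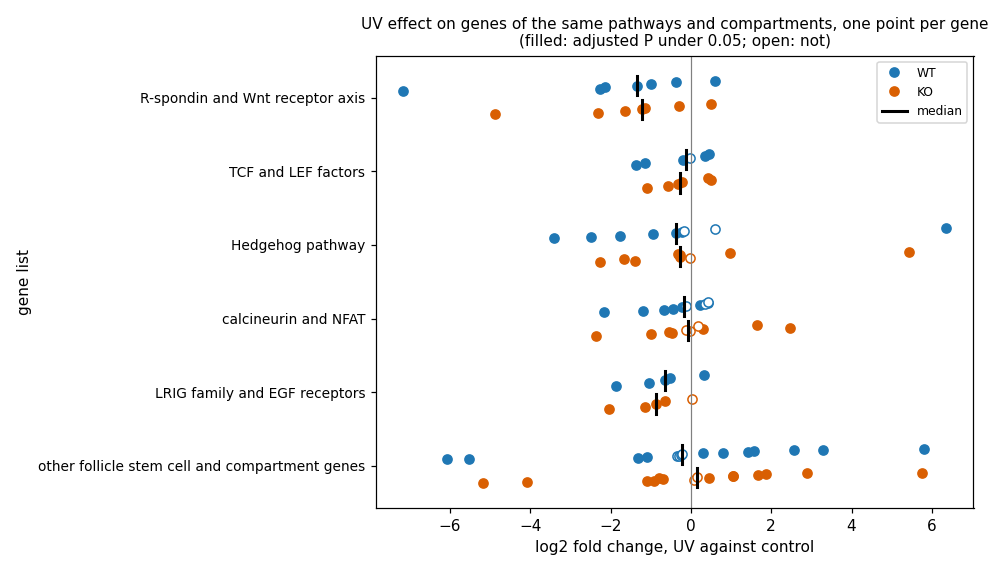
Log2 fold change of UV against control for the genes of 6 related lists, 1 point per gene, WT (blue) above KO (orange), with the median of each list as a black bar (filled, adjusted P under 0.05; open, not). The R-spondin and Wnt receptor list has the lowest medians (-1.35 in WT, -1.21 in KO), and the other follicle genes spread from -6.08 (Krt15) to 5.80 (Plet1) in WT mice.

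Lrig1 encodes a membrane protein that restrains receptors of the EGF receptor family. Lrig1 (ENSMUSG00000030029, chromosome 6, 94604529 to 94700158, minus strand) was read at 30.6 to 65.8 cpm (median 44.8) in WT control mice and at 21.3 to 33.2 cpm (median 25.8) in WT UV mice, and the ranges overlapped between 30.6 and 33.2 cpm. It fell 1.71-fold in WT mice (log2 fold change -0.78, SE 0.13, adjusted P = 4.95e-06). In KO mice the ranges lay over each other, 26.7 to 49.2 cpm (median 32.1) without UV and 23.1 to 47.3 cpm (median 28.0) after UV, with a log2 fold change of -0.27 (SE 0.13, adjusted P = 0.0617). That value passed the threshold with DESeq2, with limma-trend, with a stricter filter on low counts, and without KO male control replicate 3, KO female control replicate 2 or KO female UV replicate 3. Of 5 related genes, 4 fell and 1 rose in WT mice and 4 fell in KO mice. Lrig3 fell by 1.86 and Lrig2 by 1.05 on the log2 scale in WT mice, while Erbb2 and Erbb3, kinases of the EGF receptor family, fell by 0.64 and 0.53 and Egfr rose by 0.33.

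Cd34 encodes a surface glycoprotein that is used to sort bulge cells, and it also marks endothelium and some dermal cells. Cd34 (ENSMUSG00000016494, chromosome 1, 194938819 to 194961279, plus strand) was read at 0.0956 to 1.17 cpm (median 0.762) in WT control mice and at 1.85 to 4.17 cpm (median 3.67) in WT UV mice, without overlap. It rose 4.99-fold (log2 fold change 2.32, SE 0.63, adjusted P = 0.00171). In KO mice it was read at 0.0960 to 6.98 cpm (median 0.530) without UV and at 3.64 to 106.2 cpm (median 6.96) after UV, and KO female control replicates 1 and 2, at 6.98 and 4.00 cpm, reached into the range of the UV mice. The rise in KO mice was 9.59-fold (log2 fold change 3.26, SE 0.63, adjusted P = 4.35e-05). Without KO female UV replicate 2, the KO UV mice averaged 6.51 ± 2.63 cpm (n = 7) in place of 19.0 ± 35.3 cpm (n = 8), and the rise was 5.07-fold (log2 fold change 2.34, SE 0.53, adjusted P = 0.000296).

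Fibroblast and endothelial markers were set beside Cd34 mouse by mouse. In WT mice the summed fibroblast markers were 12.8 to 73.6 cpm in controls and 1.86 to 8.44 cpm after UV, so that Cd34 and these markers moved in opposite directions, and 3 of the 8 markers fell (Col1a1, Col1a2 and Col3a1) while none rose. The 7 endothelial markers summed to 1.46 to 5.95 cpm in WT controls and to 1.77 to 7.49 cpm after UV, and 3 of the 6 tested rose (Pecam1, Kdr and Cdh5), while Vwf fell. In KO female UV mice Cd34 was 8.74, 106.2, 9.02 and 9.98 cpm, beside endothelial sums of 22.0, 57.4, 14.0 and 22.9 cpm and fibroblast sums of 11.2, 2208, 6.43 and 10.4 cpm. The KO female control mice with the higher Cd34, replicates 1 and 2, had fibroblast sums of 100.1 and 90.1 cpm and endothelial sums of 13.9 and 15.5 cpm, against at most 5.85 and 3.36 cpm in replicates 3 and 4. The part of endothelium or dermis in the Cd34 values was not tested. Without the 5 mice above 50 cpm of fibroblast markers, Cd34 rose by 2.51 (SE 0.41) in WT and by 3.90 (SE 0.52) in KO mice on the log2 scale, and its call held in both.

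**Figure D4:**
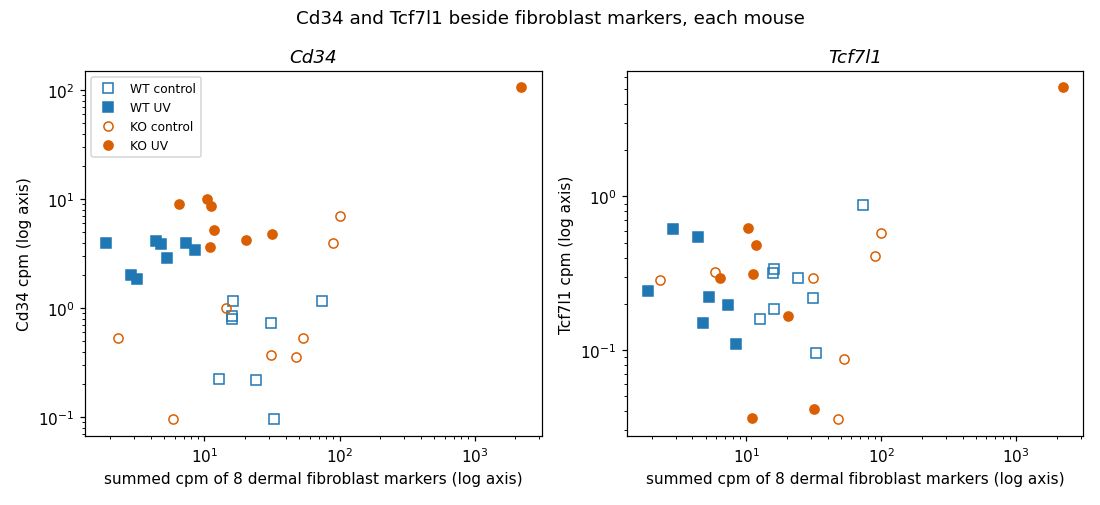
Cd34 (left) and Tcf7l1 (right) in cpm against the summed cpm of 8 dermal fibroblast markers, 1 point per mouse, both axes logarithmic (squares, WT; circles, KO; open, control; filled, UV; mice without a Tcf7l1 read are not drawn). WT UV mice combine the higher Cd34 values (1.85 to 4.17 cpm) with fibroblast sums of 1.86 to 8.44 cpm, and KO female UV replicate 2 lies alone at 2208 cpm.

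Sox9 encodes a transcription factor of the bulge and outer root sheath that is needed to form and keep the follicle stem cells. Sox9 (ENSMUSG00000000567, chromosome 11, 112782224 to 112787760, plus strand) was read at 7.49 to 13.2 cpm (median 9.82) in WT control mice and at 42.6 to 64.9 cpm (median 50.9) in WT UV mice. In KO mice the ranges were 6.55 to 12.5 cpm (median 9.31) without UV and 39.2 to 70.5 cpm (median 55.6) after UV. Every UV mouse of either genotype stood above every control mouse. Sox9 rose 5.23-fold in WT (log2 fold change 2.39, SE 0.13, adjusted P = 3.99e-15) and 5.83-fold in KO mice (2.55, SE 0.13, adjusted P = 1.48e-15). Among genes with a mean of at least 1 cpm, 467 rose by more in WT and 515 in KO mice. Its values rested on 1061 to 2157 reads per UV mouse and 167 to 391 reads per control mouse.

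Nfatc1 encodes a calcium-regulated transcription factor known for holding bulge stem cells in quiescence. Nfatc1 (ENSMUSG00000033016) was read at 35.1 to 41.8 cpm (median 39.9) in WT control mice and at 30.8 to 36.7 cpm (median 33.0) in WT UV mice, and at 35.2 to 53.6 cpm (median 40.7) and 24.5 to 45.3 cpm (median 35.9) in KO mice. The groups overlapped in both genotypes, and the fall was small, 1.18-fold in WT (log2 fold change -0.24, SE 0.09, adjusted P = 0.0170) and 1.17-fold in KO mice (-0.23, SE 0.09, adjusted P = 0.0213). The WT call was lost without WT female UV replicate 3 or WT female control replicate 4, and the KO call without KO female control replicate 4 or KO male UV replicate 4 and in a fit of the KO mice alone. Of 10 calcineurin and NFAT genes, 2 rose and 5 fell in WT mice and 3 rose and 4 fell in KO mice. Nfatc2 fell by 2.16 on the log2 scale in WT mice (72.8 to 16.3 cpm), the calcineurin subunits Ppp3ca and Ppp3cc fell by 1.19 and 0.68, and Nfatc3 fell by 0.44.

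Gli1 encodes the transcription factor that is both an effector and a target of Hedgehog signalling. Gli1 (ENSMUSG00000025407, chromosome 10, 127329882 to 127341974, minus strand) was read at 0.185 to 1.64 cpm (median 0.693) in WT control mice and at 0.0898 to 1.00 cpm (median 0.218) in WT UV mice, from 3 to 45 reads per mouse, and the groups overlapped. It fell 2.40-fold in WT mice (log2 fold change -1.26, SE 0.45, adjusted P = 0.0134). Before TMM scaling, 3 mice reached 1 cpm of Gli1, all of them controls, so the filter favoured a fall with UV. In KO mice, at medians of 0.458 and 0.251 cpm, the log2 fold change was -0.90 (SE 0.45, adjusted P = 0.0764), and it passed the threshold without KO male control replicate 2, KO female UV replicate 1 or KO male UV replicate 4.

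The Hedgehog list held 13 other genes, of which 9 passed the filter. In WT mice 6 fell and 1 rose, and 6 fell and 2 rose in KO mice, with medians of -0.37 and -0.26 on the log2 scale. Gas1 and Cdon, co-receptors for Hedgehog ligands, fell by 3.41 and 2.49 in WT mice, and Ptch1, the Hedgehog receptor and like Gli1 a target of the pathway, went from 25.3 to 7.50 cpm (log2 fold change -1.76, SE 0.18). The ligand Dhh rose by 6.36 from 0.0321 to 2.73 cpm in WT mice. It stayed under 1 cpm in every WT control mouse, so the filter favoured a rise with UV. The ligand Shh had a mean of 0 cpm in control mice of both genotypes and was read in KO mice after UV. In KO mice Gas1, Cdon and Ptch1 fell by 2.27, 1.40 and 1.67.

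Lhx2 encodes a LIM homeodomain factor of the bulge and hair germ. Lhx2 (ENSMUSG00000000247, chromosome 2, 38339281 to 38369733, plus strand) was read at 0.329 to 1.11 cpm (median 0.477) in WT control mice and at 0 to 0.424 cpm (median 0.0308) in WT UV mice, from 0 to 28 reads per mouse. The log2 fold change in WT mice was -3.13 (SE 0.64, adjusted P = 8.8e-05), and the ranges overlapped. Lhx2 passed the filter only through 3 control mice, so the filter favoured a fall with UV. The call was also made with no filter on low counts. In the 4 WT UV males there were 2 reads in all, against 59 in the 4 WT control males, a ratio of 0.0298 (95% exact binomial interval 0.00353 to 0.113, counting error only). In KO mice the range was 0.220 to 1.31 cpm (median 0.434) without UV and 0 to 0.668 cpm (median 0.359) after UV, with a log2 fold change of -0.72 (SE 0.54, adjusted P = 0.233).

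Tcf7l1 (TCF3 in older papers) encodes a TCF family repressor of Wnt targets. Tcf7l1 (ENSMUSG00000055799, chromosome 6, 72626378 to 72789254, minus strand) had medians of 0.257 and 0.209 cpm in WT control and UV mice and of 0.289 and 0.303 cpm in KO mice. One mouse, KO female UV replicate 2, held 177 reads (5.13 cpm), and the other 31 mice held 0 to 24 reads. The log2 fold change with UV was -0.27 (SE 0.68, adjusted P = 0.737) in WT and 1.34 (SE 0.69, adjusted P = 0.0853) in KO mice, and the latter was 2.04 and passed the threshold (adjusted P = 0.0221) without KO male control replicate 4. Without KO female UV replicate 2, Tcf7l1 was below the filter, and the KO UV mice averaged 0.279 ± 0.220 cpm (n = 7). The rest of the TCF and LEF list (7 genes, 6 tested) held 2 that rose and 3 that fell in WT mice: Tcf7l2 fell by 1.36 and the co-repressor Tle2 by 1.14 on the log2 scale, Tle1 rose by 0.45 and Tcf7 by 0.34, and Tle4 fell by 0.19. Lef1, the factor of the hair matrix, was at 0.158 and 0.202 cpm in WT control and UV mice and was not tested.

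The next question is whether PPARbeta deficiency alters these genes. Without UV none of the 8 genes differed between KO and WT mice by edgeR, DESeq2 or limma-trend, where 0.206% of all genes did by edgeR. An unadjusted P value under 0.05 (edgeR) was held by 1324 of all 15546 genes and by 2 of the 8. The 2 were Lgr6, with a log2 difference (KO minus WT) of -0.59 (SE 0.26, adjusted P = 0.538), and Lrig1, at -0.34 (SE 0.13, adjusted P = 0.428). Sox9 was at 9.92 ± 1.85 cpm in WT and 9.58 ± 2.23 cpm in KO control mice (SD, n = 8 each), a log2 difference of -0.06 with a 95% interval from -0.32 to 0.20.

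After UV 1 of the 8 genes differed between genotypes, against 3.31% of all genes. Lhx2 was higher in KO than in WT mice by 2.38 on the log2 scale (SE 0.65, adjusted P = 0.0403), at 0.330 ± 0.219 against 0.108 ± 0.158 cpm (SD, n = 8 each). This call was lost when any of 12 of the 16 UV mice was left out, the exceptions being KO female UV replicates 1 and 3, KO male UV replicate 2 and WT female UV replicate 2. The estimate averages the log2 differences of males and females. In males it rested on 2 Lhx2 reads in all WT UV mice against 34 in KO UV mice, and in females on 22 against 37. The difference for Cd34 was 1.90 (SE 0.58, adjusted P = 0.0653), and 0.96 (SE 0.50, adjusted P = 0.308) without KO female UV replicate 2. For Lgr6 it was 0.90 (SE 0.34, adjusted P = 0.137), at 1.16 ± 0.907 against 0.558 ± 0.318 cpm.

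The size of the UV response itself was compared between genotypes by the interaction of genotype and UV, which passed the threshold for 0.765% of all genes. None of the 8 genes passed it by edgeR or limma-trend, and 1 did by DESeq2 (Lgr6). An unadjusted P value under 0.05 (edgeR) was held by 3042 of all 15546 genes and by 3 of the 8. Those 3 had positive differences in log2 fold change (KO minus WT), which did not pass the adjusted threshold: Lgr6 with 1.49 (95% interval 0.60 to 2.38, adjusted P = 0.0842), Lrig1 with 0.51 (0.14 to 0.88, adjusted P = 0.131) and Lhx2 with 2.41 (0.72 to 4.10, adjusted P = 0.121). For Sox9 the difference was 0.16 (-0.20 to 0.52), and for Nfatc1 0.01 (-0.24 to 0.26). By sex, the log2 fold change of Lhx2 with UV was -4.73 in WT and -0.115 in KO males. In females it was -1.54 in WT and -1.33 in KO mice. The interaction of Cd34 was 0.94 (SE 0.86, adjusted P = 0.576) with all mice and -0.02 without KO female UV replicate 2, and it was 1.39 (SE 0.61, adjusted P = 0.298) without the 5 mice above 50 cpm of fibroblast markers.

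The study's own comparison was between the sexes. In males, UV called 7 of the 8 genes in WT mice (60.9% of all genes) and 4 in KO mice (61.7%), and in females 4 in WT mice (61.3%) and 3 in KO mice (60.7%). The fall of Lgr6 was called in every combination, 69.5-fold in WT males, 85.8-fold in WT females, 16.7-fold in KO males and 45.5-fold in KO females. The rise of Sox9 was likewise called in all 4, from 4.55-fold in WT males to 7-fold in KO males, and so was that of Cd34, from 4.62-fold in WT females to 11.6-fold in KO females. The Cd34 call in WT females was lost without UV replicate 3 or 4 or control replicate 1, 2 or 4, and that in WT males without control replicate 2 or 4. Without KO female UV replicate 2, Cd34 in KO females rested on 3 UV mice and had a log2 fold change of 1.67 (SE 0.73, adjusted P = 0.0525). With the 5 mice above 50 cpm of fibroblast markers left out, which also removes KO female control replicates 1 and 2, it was 4.85 (SE 0.82, adjusted P = 3.89e-05). Gli1, Lhx2 and Nfatc1 were called in WT males and not in WT females, and Nfatc1 also in KO males and not in KO females. The Nfatc1 calls were near the threshold (adjusted P = 0.0464 in WT and 0.0418 in KO males). In WT males it was lost with RLE scaling, DESeq2, a stricter filter or no filter and without any male mouse but UV replicate 4, and in KO males with RLE scaling, no filter or the KO mice alone and without control replicate 1, 2 or 3 or UV replicate 1 or 4. Gli1 had a log2 fold change of -2.24 (SE 0.65, adjusted P = 0.00383) in males and -0.28 (SE 0.62, adjusted P = 0.716) in females, and Lhx2 had -1.54 (SE 0.78, adjusted P = 0.0908) in females. The interaction of sex and UV passed the threshold for none of the 8 genes in either genotype by edgeR, DESeq2 or limma-trend, as for 0% of all genes in WT and 0% in KO mice (419 and 1482 genes at an unadjusted P value under 0.05), so these genes were not shown to respond differently in males and females. Lhx2 and Gli1 in WT mice, and Lgr6 and Sox9 in KO mice, had an unadjusted P value under 0.05 for it.

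Females and males were also compared directly. None of the 8 genes differed between the sexes in WT control (0.0708% of all genes), WT UV (0.0772%) or KO control mice (3.85%) by edgeR, DESeq2 or limma-trend. At an unadjusted P value under 0.05 (edgeR) were 1, 1 and 3 of them, and 986, 618 and 3488 of all 15546 genes. In KO UV mice 3 did, where 13.3% of all genes did. Cd34 was 7.52-fold and Tcf7l1 8.62-fold higher in females (adjusted P = 0.0239 and 0.0352), and Lgr6 2.62-fold lower (0.648 ± 0.374 against 1.68 ± 1.04 cpm, SD, n = 4 each, adjusted P = 0.0451). None of these 3 calls held without the female library that stood apart: Cd34 was 2.08-fold higher (adjusted P = 0.430), Lgr6 had a log2 difference of -1.21 (adjusted P = 0.170), and Tcf7l1 was below the filter. Cd34 alone was called without KO male UV replicate 1, and Lgr6 alone without KO male UV replicate 2 or 3.

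Other genes of follicle stem cells and follicle compartments were taken as a list of 16, of which 15 were tested. In WT mice 7 rose and 4 fell, and in KO mice 7 rose and 6 fell, with medians of -0.21 and 0.15 on the log2 scale. Krt15, a keratin of the bulge and of basal epidermis, went from 258 ± 115 to 3.91 ± 1.78 cpm in WT mice (SD, n = 8 each, log2 fold change -6.08, SE 0.30) and from 188 ± 87.4 to 4.82 ± 2.04 cpm in KO mice (-5.18).  Postn, a matricellular protein, had log2 fold changes of -5.53 in WT and -4.08 in KO mice. Among surface proteins, Plet1, of the junctional zone and infundibulum, rose from 9.54 to 532 cpm in WT mice (log2 fold change 5.80, SE 0.25), and Cd200, which is used to isolate bulge cells, rose from 11 to 106 cpm (3.30, SE 0.29). Hr itself was read at 675 ± 87.5 cpm in WT control and 483 ± 60.9 cpm in WT UV mice (log2 fold change -0.49, SE 0.13, adjusted P = 0.0013).

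Genes of the hair matrix, inner root sheath and hair shaft (22 listed, 21 tested) were mostly not called: 2 rose and 2 fell in WT mice and 1 rose and 2 fell in KO mice. In WT mice trichohyalin (Tchh) rose by 1.85 and Msx2 by 0.54 on the log2 scale, while the transcription factors Foxn1 and Dlx3 fell by 0.60 and 0.54. Their summed level ranged from 160 to 564 cpm in WT control and from 127 to 1180 cpm in WT UV mice. Dermal papilla markers (8 listed) summed to at most 1.2 cpm in WT control and 1.43 cpm in WT UV mice, and all 8 stayed under 1 cpm in every WT control mouse.

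For each gene tested, the 3 genes whose levels varied most like it from mouse to mouse were found among 13084 or 13085 other genes with a mean of at least 1 cpm, by Pearson's r of log2 cpm over the 32 mice after the mean of each of the 8 groups had been taken out. The mice share their group structure and each mouse is 1 library, so the values are a description. Cd34 went with Htra3 (r = 0.86, Spearman's rho 0.81), Clec10a (r = 0.85, rho 0.88) and Rhoc (r = 0.83, rho 0.79), and the first 2 values were 0.79 and 0.84 without the 2 mice farthest from the median of Cd34. Tcf7l1 went with Bgn (r = 0.70), Mgl2 (r = 0.68) and Fn1 (r = 0.67), which dropped to 0.58, 0.44 and 0.56 without 2 mice, KO female UV replicate 2 among them. Lhx2 went with Xndc1 (r = 0.78, rho 0.65), Krt73 (r = 0.76, rho 0.58), a keratin of the inner root sheath, and Gm11595 (r = 0.71, rho 0.54), and these were r = 0.61, 0.53 and 0.41 without the 2 mice farthest from its median. Nfatc1 went with Myo1e (r = 0.81), Ppfia1 (r = 0.80) and Gm47218 (r = 0.79), and Lrig1 with A730085K08Rik (r = 0.76), Mccc2 and Fzd7 (r = 0.69 each). Sox9 went with Tas1r3 (r = 0.77), Ttl (r = 0.72) and Sun2 (r = 0.70), Lgr6 with Fbxo36 (r = 0.70), Prps1 and Mrpl32 (r = 0.68 each), and Gli1 with Psmg3, 1110065P20Rik (r = 0.65 each) and Nfatc2ip (r = 0.63). None of the 8 genes was among the 3 closest of another. Lhx2, Tcf7l1 and Gli1 could not be, because their means were under 1 cpm and they were not among the genes compared. Between the 8 genes themselves, r ran from -0.50 (Lgr6 and Nfatc1) to 0.45 (Cd34 and Tcf7l1, and Lhx2 and Tcf7l1).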

How the data were processed

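Epidermal RNA of 32 mice, 4 in each of 8 groups taken from the labels, was sequenced from stranded mRNA libraries (RQN 6.4 to 8.4 per the labels, while the study's methods give a higher range). The authors trimmed reads with Cutadapt 1.8, aligned them with STAR 2.5.3a and summarised them by gene with htseq-count 0.9.1. The deposited values are whole-number counts, not normalized. The submitters' processing notes name GRCm38, and GENCODE M21 (GRCm38) held 55141 of the 55401 identifiers. Another annotated gene overlaps 7 of the 9 genes, and the strand setting of the counting is not given in the sources used here. Reads without a feature (6.8% to 9.75%) were left out.

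Genes reaching 1 cpm in any mouse were tested with edgeR 4.0.16 (TMM, quasi-likelihood F test, 1 mean per group, all 32 mice, Benjamini-Hochberg over 15546 genes, R 4.3.3). Printed levels are cpm scaled by TMM, and the filter used cpm without TMM. Alternatives were DESeq2 1.42.0, limma-trend 3.58.1 (the study's method), RLE scaling, other filters, subsets of mice and each mouse left out. Scripts were tested on simulated counts. The 9 genes and all lists were chosen with earlier results of these data known. Besides them, up to 4 genes per list are named, by the size of the UV change in WT mice past the threshold at a mean of at least 1 cpm, plus Ppard, Hr, Krt15, Lgr4, Ptch1 and Lef1. Rspo3, Lrp6, Ctnnb1, Egfr, Tle4, Shh and Cdh5 were chosen after their values were seen. Replicates are separate mice.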

Additional observations from a re-analysis of the deposited data

Results flagged for a closer look

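In each of the 8 groups of 4 mice, the gap between the most extreme mouse and its neighbour was compared with the range of the group (Dixon's ratio, 95% critical value). Of 72 combinations of gene and group, 4 held a mouse that stood apart, 5.6%, where chance gives about 1 in 20. In KO female UV mice, replicate 2 stood apart for both Cd34 (106.2 cpm, 3663 reads, next mouse 9.98 cpm) and Tcf7l1 (5.129 cpm, 177 reads, next mouse 0.626 cpm), and this is the library with 2208 cpm of dermal fibroblast markers. Lgr6 was at 64.5 cpm in WT female control replicate 1, where the next mouse had 37.4 cpm. Lgr5 was at 0.2851 cpm in WT male UV replicate 1, from 9 reads, where the next mouse had 0.0299 cpm.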

How the results depend on the processing

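The UV calls of Lgr6, Cd34 and Sox9 in both genotypes, and of Lrig1, Lhx2 and Gli1 in WT mice, held their direction and side of the threshold under every alternative run and without each mouse in turn. Of these genes, Lhx2 and Gli1 passed the main filter only through control mice. The number of the 8 genes that differed between genotypes after UV was 1, and 2 by DESeq2, 0 by limma-trend, 0 without a filter, 0 in the 16 UV mice alone (6 genes tested, Lhx2 not among them), 0 without the mice over 50 cpm of fibroblast markers (an alternative chosen after seeing the data), and 0 to 2 without single mice. The number with a genotype by UV interaction was 0, and 1 by DESeq2 and 0 to 1 without single mice. The number that changed with UV in KO females was 3, and 2 to 5 without single mice (2 without KO female UV replicate 2, 5 without KO female UV replicate 1 or 3). The number that changed in WT males was 7, and 6 with RLE scaling, DESeq2, filterByExpr or no filter and 5 to 7 without single mice. In KO males it was 4, and 3 with RLE scaling, no filter or the 16 KO mice alone and 3 to 4 without single mice. In WT females it was 4, and 3 to 5 without single mice. The number that differed by sex in KO UV mice was 3, and 0 by limma-trend, 1 without a filter, 0 in the 16 KO mice alone, 1 in the 16 UV mice alone, 0 without the fibroblast-rich mice, and 0 to 3 without single mice. With the longest transcript as the length, 3 of the 9 genes kept their place in the order of levels in KO control mice.

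Several differences near 0 changed sign, none of them past the threshold in either form. Without the fibroblast-rich mice the genotype difference in control mice became -0.417 for Cd34, 0.046 for Sox9 and 0.296 for Lhx2, and that after UV became 0.078 for Gli1, which was 0.018 by limma-trend. The Nfatc1 interaction became -0.029 with RLE scaling, -0.028 by DESeq2, -0.029 with filterByExpr, -0.041 without a filter and -0.119 without the fibroblast-rich mice. Without single mice the ranges were -0.459 to 0.089 for UV on Tcf7l1 in WT, -0.102 to 0.007 and -0.169 to 0.217 for the genotype difference of Sox9 and Lhx2 in controls, -0.324 to 0.293 for that of Gli1 after UV, and -0.015 to 1.405 and -0.071 to 0.076 for the interactions of Cd34 and Nfatc1. The causes were not tested.

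Depth limits Lgr5, Lhx2, Tcf7l1 and Gli1, which had at most 15, 41, 177 and 45 reads per mouse. Reads carry no molecular identifiers, so intervals from counts cover counting error only. No paired analysis was possible because the replicate numbers were given in accession order and pair no mice.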
